A study of Ricinus communis with 6 samples.

Results

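Acyl lipid and oil synthesis genes were followed in the stem internode of castor bean (Ricinus communis L.), a crop grown for its seed oil. The group holds 7 of the 18875 gene rows in the expression table, listed by name: KASIII (LOC8279652), SAD2 (LOC8263458), ACS2 (LOC8259099), G3PDH (LOC8260718), LPAT4 (LOC8260938), DGAT2 (LOC8258757) and PLD1 (LOC8282326). They were chosen with earlier results of these data known. RNA-seq had been run on the fifth internode of the main stem in dwarf castor 071113 (libraries D1, D2 and D3, labelled short-stalk) and in high-stalk Zhuansihao (libraries L1 to L3, spelled Zhansihao in some sample labels). Plants grew in the field without treatment and were sampled in rapid growth, at 8 to 10 leaves, and about 6 plants were dissected. The varieties are separate breeding lines that differ across their whole genetic background, so a difference between them cannot be assigned to a single allele. The labels do not say which plants stand behind each library, so p-values measure the spread between these libraries.

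Plants make fatty acids in plastids, where acyl chains grow on acyl carrier protein (ACP). The chains are released, activated to acyl-CoA outside the plastid and joined stepwise to glycerol-3-phosphate, giving phosphatidic acid, membrane lipids and triacylglycerol. Castor seeds are known for oil rich in the hydroxy fatty acid ricinoleate, whereas a growing stem uses acyl lipids mainly for membranes and surface layers. The name G3PDH is used for both glycerol-3-phosphate and glyceraldehyde-3-phosphate dehydrogenase, and the sources used here do not settle which enzyme LOC8260718 encodes. ACS2 is read here as an acyl-CoA synthetase because the castor RefSeq table gives ACS1 as another name of the long-chain acyl-CoA synthetase LACS4, although the same abbreviation is used for an enzyme of ethylene synthesis.

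Values are FPKM (sequenced fragments counted per kilobase of a transcript's length and set against all mapped fragments of the library), which can be compared between genes because they are given per length. They sum to between 585381 and 600050 per library and hold no read counts. Repeated ratios among values under 0.5 FPKM put the depth of the libraries at 0.868 to 1.08 times that of D1, so no library was much deeper than the rest, and no counting interval can be given. Library D2 stands apart from its own variety: over all genes its log2 values correlated with those of L1 at r = 0.958, against 0.792 with D1 and 0.808 with D3. L1 in turn correlated less with L2 (0.932) and L3 (0.927) than with D2. In its hormone measurements the study also treated sample L1 as an outlier and used the mean of L2 and L3 in its place. The labels were kept as given, and whether D2 or L1 was mislabelled or taken at another stage of growth was not tested, so what their values say of either variety is uncertain. The study left D2 out on its correlations and to match its metabolome analysis, where D2 reproduced poorly. The comparison below therefore sets D1 and D3 against the Zhuansihao libraries, with the values over all 6 libraries beside it. Because D2 was left out on measured values, p-values without it can be too small. Each gene was tested with limma on log2(FPKM + 1), adjusted over all tested genes by the Benjamini-Hochberg method, and called at an adjusted p under 0.05.

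All 7 genes were expressed in the internode, and all 7 passed the filter on low values. Averaged over the 6 libraries, PLD1 had the highest level at 171 FPKM, followed by SAD2 at 57.9 FPKM. DGAT2 at 25.0, KASIII at 24.3 and ACS2 at 20.8 FPKM formed a middle group whose library values overlapped, and G3PDH at 14.4 and LPAT4 at 9.65 FPKM were lowest, again with overlapping library values. PLD1 ranked high in the whole table, with 96.9% of tested genes at a lower mean.

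**Figure D1:**
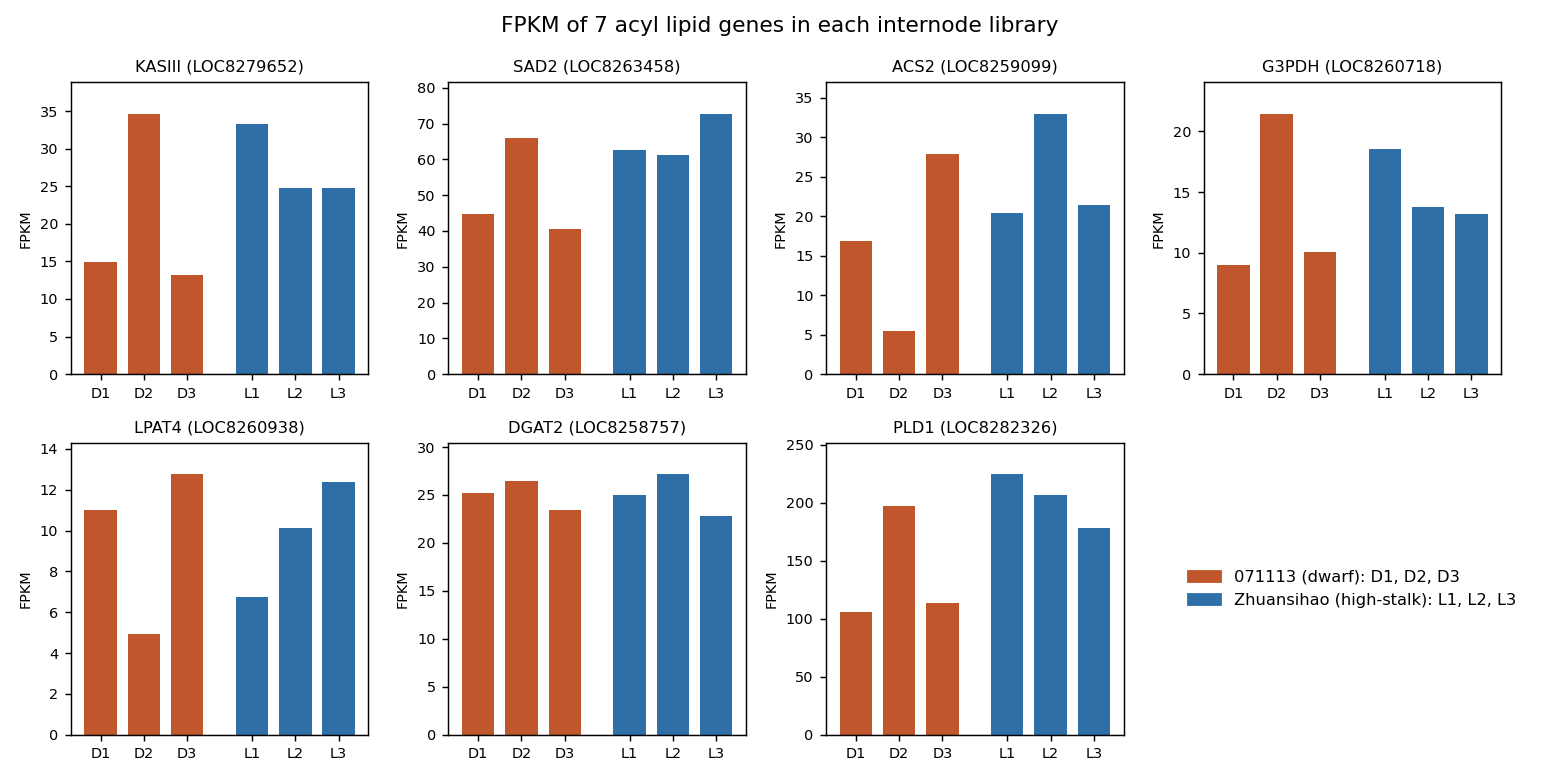
FPKM (vertical axis, linear, from 0) of the 7 acyl lipid genes in each library, with 071113 libraries on the left and Zhuansihao libraries on the right of each panel and each bar a library. D1 and D3 lie below each Zhuansihao library for KASIII, SAD2, G3PDH and PLD1, while D2 lies within or above the Zhuansihao values of these genes.

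KASIII and SAD2 act inside the plastid. KASIII (ketoacyl-ACP synthase III) joins acetyl-CoA to malonyl-ACP and so starts each acyl chain. It had 15.0, 34.7 and 13.2 FPKM in D1, D2 and D3, against 33.3, 24.8 and 24.8 FPKM in L1, L2 and L3. D1 and D3 were below each Zhuansihao library, whereas D2 was above all of them. The mean was 14.1 ± 1.24 FPKM in D1 and D3 (SD, n = 2), 48.9% lower than the 27.6 ± 4.90 FPKM in Zhuansihao (SD, n = 3). On the log2(FPKM + 1) scale KASIII fell by 0.91 (SE 0.17, limma adjusted p = 0.0342). With D2 included the difference was -0.50 (SE 0.38, adjusted p = 0.731), and the call was also lost without D1 (adjusted p = 0.192), D3 (0.202), L2 (0.0628) or L3 (0.0574). The difference itself lay between -0.99 and -0.77 when any of the 5 libraries was left out.

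SAD2 is a stearoyl-ACP desaturase, the kind of enzyme that puts the first double bond into the chain and so makes oleoyl-ACP. Its level was 44.7, 65.9 and 40.5 FPKM in D1, D2 and D3, against 62.6, 61.1 and 72.8 FPKM in L1, L2 and L3. Here too D1 and D3 were below each Zhuansihao library, but D2 fell inside the Zhuansihao range. The mean of D1 and D3 was 42.6 ± 2.95 FPKM (SD, n = 2), 35.0% lower than the 65.5 ± 6.34 FPKM of Zhuansihao (SD, n = 3). SAD2 fell by 0.61 on the log2(FPKM + 1) scale (SE 0.12, limma adjusted p = 0.0377). This call was close to the threshold and was lost with median-ratio scaling (adjusted p = 0.0513), when any of the 5 libraries was left out (0.0526 to 0.229) and with D2 included (-0.40, SE 0.21, adjusted p = 0.619). With a library left out the difference lay between -0.68 and -0.53.

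ACS2, if its name is read as acyl-CoA synthetase, stands for the activation of free fatty acids to acyl-CoA. It had 16.8, 5.47 and 27.9 FPKM in D1, D2 and D3, against 20.4, 33.0 and 21.4 FPKM in L1, L2 and L3. The varieties overlapped, since D3 was above L1 and L3, and D2 was the lowest library by a wide margin. D1 and D3 averaged 22.3 ± 7.82 FPKM (SD, n = 2) and Zhuansihao 24.9 ± 6.99 FPKM (SD, n = 3). The log2 difference of -0.16 did not pass the test (95% interval -0.92 to 0.60, limma adjusted p = 0.728), and an interval this wide leaves room for a difference of the size seen in KASIII. With D2 included the difference was -0.76 (SE 0.56, adjusted p = 0.725). ACS2 varied most of the 7 genes, by 6.03-fold between its highest and lowest library.

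G3PDH, LPAT4 and DGAT2 are placed in glycerolipid assembly, G3PDH only if its name stands for the glycerol-3-phosphate enzyme. G3PDH had 8.97, 21.5 and 10.1 FPKM in D1, D2 and D3, against 18.5, 13.8 and 13.2 FPKM in L1, L2 and L3. D1 and D3 were below each Zhuansihao library, and D2 was above each of them, the same arrangement as in KASIII. The mean of D1 and D3, 9.53 ± 0.786 FPKM (SD, n = 2), was 37.3% lower than the Zhuansihao mean of 15.2 ± 2.91 FPKM (SD, n = 3). The log2 difference of -0.61 (SE 0.18) did not pass the test (limma adjusted p = 0.0845). With D2 included it was -0.24 (SE 0.34, adjusted p = 0.855).

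LPAT4 is a lysophosphatidic acid acyltransferase, which adds an acyl chain to lysophosphatidic acid and so makes phosphatidic acid. Its level was 11.0, 4.93 and 12.7 FPKM in D1, D2 and D3, against 6.73, 10.1 and 12.4 FPKM in L1, L2 and L3. The varieties overlapped and the lowest values were those of D2 and L1. D1 and D3 averaged 11.9 ± 1.25 FPKM (SD, n = 2) and Zhuansihao 9.75 ± 2.85 FPKM (SD, n = 3), a log2 difference of 0.29 that did not pass the test (95% interval -0.37 to 0.96, limma adjusted p = 0.459). With D2 included the sign turned, at -0.08 (SE 0.38, adjusted p = 0.961).

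DGAT2, a diacylglycerol acyltransferase that makes triacylglycerol and in castor seed is known for placing ricinoleate into oil, was the steadiest of the 7. It had 25.2, 26.4 and 23.4 FPKM in D1, D2 and D3, against 25.0, 27.2 and 22.8 FPKM in L1, L2 and L3. The values of the varieties interleaved, and neither D2 nor L1 was at an end of the range. Means were 24.3 ± 1.25 FPKM in D1 and D3 (SD, n = 2) and 25.0 ± 2.19 FPKM in Zhuansihao (SD, n = 3), with a log2 difference of -0.04 (95% interval -0.33 to 0.26, limma adjusted p = 0.841). Including D2, the interval was -0.30 to 0.30. Over the 6 libraries DGAT2 had a coefficient of variation of 6.76%, against a median of 24.5% over all tested genes, of which 4.16% varied less.

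PLD1 belongs to the phospholipase D enzymes, which cut the head group from membrane phospholipids and release phosphatidic acid. Its level was 106, 197 and 114 FPKM in D1, D2 and D3, against 225, 207 and 178 FPKM in L1, L2 and L3. D1 and D3 were again below each Zhuansihao library, and D2 lay between L2 and L3. D1 and D3 averaged 110 ± 5.36 FPKM (SD, n = 2), 46.0% lower than the 203 ± 23.3 FPKM of Zhuansihao (SD, n = 3). PLD1 fell by 0.88 on the log2(FPKM + 1) scale (SE 0.14, limma adjusted p = 0.0244), the smallest adjusted p of the 7. With D2 included the difference was -0.60 (SE 0.27, adjusted p = 0.579), and the call was also lost without D1 (adjusted p = 0.203), D3 (0.150) or L2 (0.0605). It lay between -0.97 and -0.80 when any of the 5 libraries was left out.

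**Figure D2:**
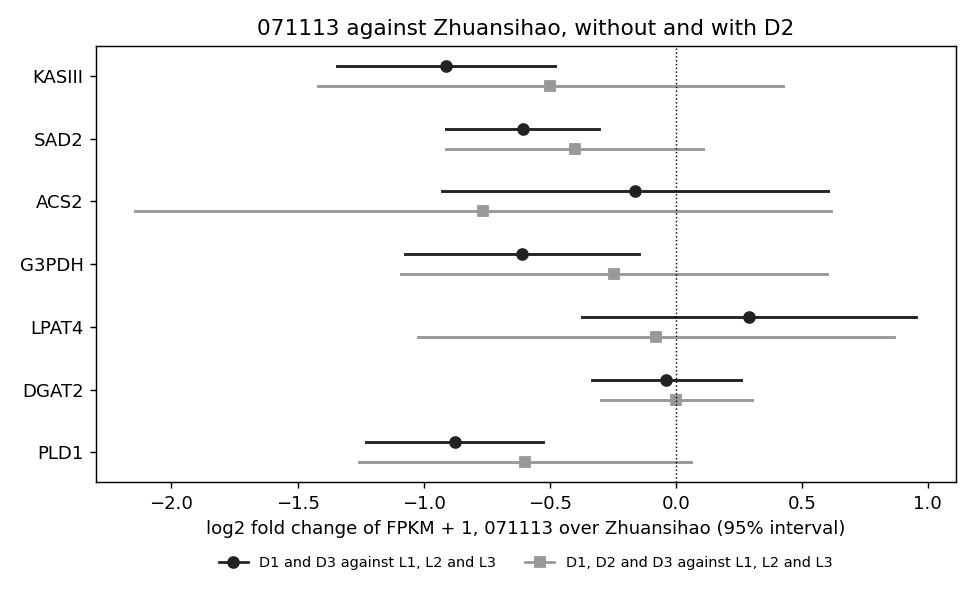
Difference between 071113 and Zhuansihao in log2(FPKM + 1) for the 7 genes (horizontal axis), with bars for the 95% interval, without D2 and with all 6 libraries. KASIII, SAD2 and PLD1 have intervals below 0 and adjusted p under 0.05 without D2, the unadjusted interval of G3PDH is also below 0 (adjusted p = 0.0845 by limma), and every interval with D2 included spans 0.

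Counted together, 3 of the 7 genes (KASIII, SAD2 and PLD1) were lower in D1 and D3 than in Zhuansihao, none was higher, and 4 were not called. Of 15925 genes tested in all, 6.17% were lower and 6.96% higher. At an unadjusted p under 0.05, 4 of the 7 were lower and 0 were higher, against 19.3% lower and 15.8% higher of all tested genes. None passed the stricter call that also asks for a log2 difference of at least 2 in size, which 2.53% of all tested genes passed. The median log2 difference of the 7 was -0.61, against -0.06 over all tested genes. With all 6 libraries limma called 0 of the 7, also 0 at an unadjusted p under 0.05, where 0.0123% of 16236 tested genes were called and 4.17% were lower and 5.14% higher at that unadjusted p. The median was then -0.40 for the 7 genes and -0.05 for all. Without D1, and likewise without D3, limma called 0 of the 7 and 0 of all tested genes, with 3 of the 7 lower at an unadjusted p under 0.05, against 9.25% of all tested genes without D1 and 10.7% without D3. In bulk tissue, fewer cells of a type and less RNA per cell cannot be told apart.

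Whether a gene follows variety can also be read from the order of the library values. D1 and D3 were each below each Zhuansihao library in 4 of the 7 genes (KASIII, SAD2, G3PDH and PLD1), an order seen in 32.8% of tested genes. In the other 3 the varieties overlapped. No gene of the 7 had all of D1, D2 and D3 below each Zhuansihao library, an order found in 7.41% of tested genes, or above, found in 7.44%. So none of the 7 followed variety in every library.

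The order of D2 and L1 divides the genes differently. D2 and L1 were the 2 highest libraries for KASIII and G3PDH, as in 26.8% of tested genes, and the 2 lowest for LPAT4, as in 16.4%. For SAD2, ACS2, DGAT2 and PLD1 they were neither. D2 was nearer to the Zhuansihao mean than to that of D1 and D3 in 6 of the 7 genes, against 72.5% of tested genes, and ACS2 was the exception. Relative to the mean of D1 and D3, D2 had 2.46 times as much KASIII and 2.25 times as much G3PDH. For PLD1 it had 1.79 times and for SAD2 1.55 times as much, but 0.415 times as much LPAT4 and 0.245 times as much ACS2. Thus SAD2 and PLD1 separated D1 and D3, but not D2, from Zhuansihao, and D2 and L1 were not their 2 highest libraries. KASIII and G3PDH showed both orders at once, and LPAT4 showed the D2 and L1 order alone. ACS2 was set apart by D2 alone, and DGAT2 showed none of these. The sucrose transporter gene SUT1, a phloem marker, had 344, 73.6 and 296 FPKM in D1, D2 and D3, against 153, 406 and 245 FPKM in L1, L2 and L3. It too was lowest in D2 and L1, and the part of tissue makeup in the values of D2 and L1 was not tested. The other tissue markers looked for could not be matched by name, apart from the seed gene FAH12 described below.

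The 7 genes also differed in how they moved with each other. Across the 6 libraries, G3PDH and KASIII had the highest correlation of log2(FPKM + 1), with Pearson r = 0.954 and Spearman rho = 0.886. KASIII and PLD1 had r = 0.935 and rho = 0.657, and KASIII and SAD2 had r = 0.879 and rho = 0.829. LPAT4 ran opposite to G3PDH, with r = -0.878 and rho = -0.829, and to KASIII, with r = -0.790 and rho = -0.829. ACS2 and LPAT4, both lowest in D2, had r = 0.772 and rho = 0.543, while r of DGAT2 with the other 6 lay between -0.589 and 0.412. These correlations describe 6 libraries in which the same values of D2 and L1 enter every pair.

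**Figure D3:**
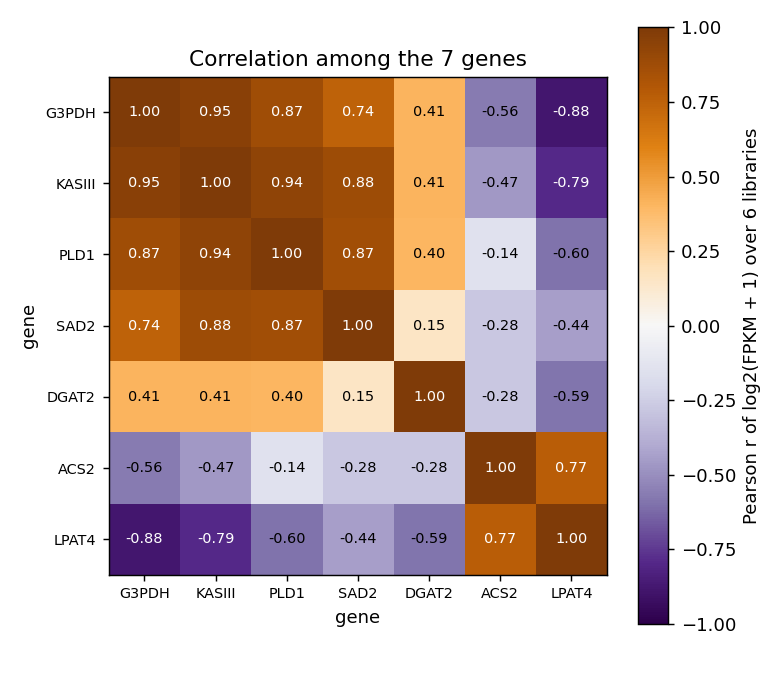
Pearson r of log2(FPKM + 1) between the 7 genes over the 6 libraries, on a colour scale from -1 to 1. KASIII, G3PDH, SAD2 and PLD1 are positively correlated with each other (r from 0.745 to 0.954), and LPAT4 is negatively correlated with G3PDH and KASIII.

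Among 54 tested genes that have a synonym in the RefSeq table, those most like each gene over the 6 libraries were also noted. Each r below is among the 2 highest of 53 candidates over only 6 libraries, so it is high by the way it was picked. G3PDH was nearest to the gene listed as CAS (r = 0.991) and to KAS1 (r = 0.987), and KASIII to PDI (r = 0.989) and KAS1 (r = 0.969). PLD1 was nearest to an actin gene (r = 0.986) and to KASIII. SAD2 was nearest to TAL4 (r = 0.919) and the same actin gene (r = 0.901). ACS2 was nearest to ACS4 (r = 0.949) and SUT1 (r = 0.864), LPAT4 to VPE (r = 0.981) and CysEP (r = 0.902), and DGAT2 to LPCAT (r = 0.817) and OBL2 (r = 0.723). The actin gene (LOC8273907), whose product builds the cytoskeleton, had 340, 555 and 321 FPKM in D1, D2 and D3, against 571, 564 and 497 FPKM in L1, L2 and L3. Because it was picked for its likeness to PLD1 over these same libraries, it shared the arrangement of PLD1 by that choice. No test of it is given for that reason. Its difference on the log2(FPKM + 1) scale was -0.72 (SE 0.15) without D2 and -0.47 (SE 0.26) with D2 included.

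The rest of the pathway was covered by a list of 20 other genes, of which 19 were in the table and 15 passed the filter on low values. In D1 and D3 against Zhuansihao limma called 0 of these 15, and their median log2 difference was -0.14. At an unadjusted p under 0.05, 3 were lower and 0 higher, a share close to the 19.3% of all tested genes that were lower. Of these 3, SAD3 passed the filter without D2 only through its Zhuansihao values. Its place in the count, and its being called lower when L2 was also left out, therefore carry little weight. The nearest to a call among the abundant genes was KAS1, which elongates the chains that KASIII starts. KAS1 had 20.7, 64.6 and 19.2 FPKM in D1, D2 and D3, against 55.9, 34.0 and 31.0 FPKM in L1, L2 and L3. It had the arrangement of KASIII and G3PDH, with a log2 difference of -0.93 (SE 0.27, adjusted p = 0.0788), which was -0.38 (SE 0.51, adjusted p = 0.844) with D2 included and -0.68 (adjusted p = 0.0358) without L1. FATA1, an acyl-ACP thioesterase that releases finished chains, had 14.8, 26.2 and 14.4 FPKM in D1, D2 and D3, against 19.9, 15.9 and 16.9 FPKM in L1, L2 and L3 (log2 difference -0.24, SE 0.13, adjusted p = 0.251).

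FAD2, the oleate desaturase of the endoplasmic reticulum, was the most abundant of the other pathway genes. It had 252, 473 and 243 FPKM in D1, D2 and D3, against 344, 201 and 159 FPKM in L1, L2 and L3. D2 and L1 were its 2 highest libraries and the varieties overlapped (log2 difference 0.15, SE 0.34, limma adjusted p = 0.777). FATB1, the other type of acyl-ACP thioesterase, also had its highest values in L1 and D2, with 47.9, 81.7 and 57.2 FPKM in D1, D2 and D3, against 81.9, 34.8 and 43.1 FPKM in L1, L2 and L3 (log2 difference 0.07, SE 0.37, adjusted p = 0.907). In all, D2 and L1 were the 2 highest libraries in 9 of the 19 genes and the 2 lowest in 2. Over all tested genes these orders were seen in 26.8% and 16.4%. Those of the 19 that were below the filter on low values showed neither order.

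DGAT1, the other main diacylglycerol acyltransferase type, had 52.2, 44.1 and 63.4 FPKM in D1, D2 and D3, against 64.4, 60.2 and 52.7 FPKM in L1, L2 and L3 (log2 difference -0.03, SE 0.14, limma adjusted p = 0.886). Its level was above that of DGAT2 in each library. The other abundant genes of the list, LPAT and LPAAT2 (lysophosphatidic acid acyltransferases), LACS4 (acyl-CoA activation), LPCAT (acyl exchange on phosphatidylcholine) and PDAT1-1 (transfer of an acyl chain from a phospholipid to diacylglycerol), lay between 30.7 and 50.4 FPKM in every library. Their log2 differences lay between -0.14 and 0.08, and none passed the test.

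**Figure D4:**
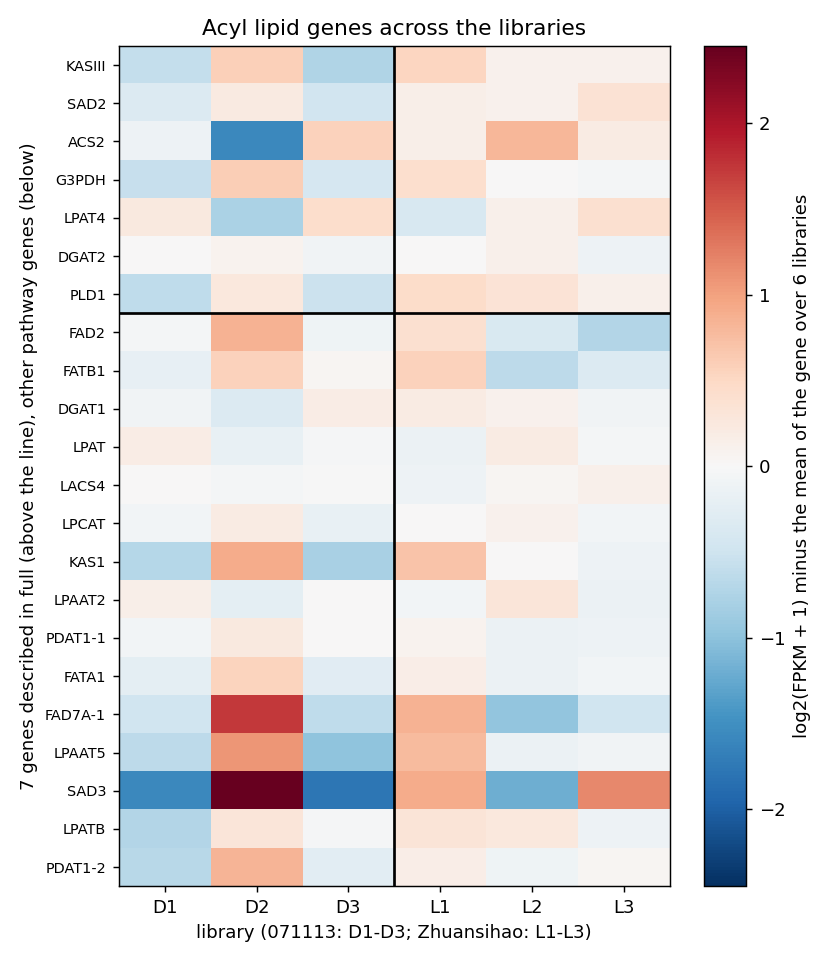
Level of the 7 genes (above the line) and 15 other pathway genes (below) in each library, as the difference of log2(FPKM + 1) from the gene's own mean over the 6 libraries, with 071113 libraries on the left and Zhuansihao libraries on the right. KASIII, G3PDH and KAS1 are highest in D2 and L1, DGAT2 is nearly flat, and ACS2 and LPAT4 are lowest in D2.

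A few further pathway genes were chosen after their values were seen. SAD3, another stearoyl-ACP desaturase, had 0.281, 19.8 and 0.119 FPKM in D1, D2 and D3, against 6.16, 0.667 and 7.58 FPKM in L1, L2 and L3. D1 and D3 were below each Zhuansihao library, an order seen in 32.8% of tested genes, and D2 was highest. Since SAD3 passed the filter without D2 only through its Zhuansihao values, this order carries little weight. LPAAT5, a further lysophosphatidic acid acyltransferase, had 3.32, 13.2 and 2.37 FPKM in D1, D2 and D3, against 10.4, 5.04 and 5.33 FPKM in L1, L2 and L3. It had the arrangement of KAS1, unlike the steadier LPAT and LPAAT2. WRI1, the transcription factor known as an activator of fatty acid synthesis genes in oilseeds, stayed under 1 FPKM throughout, with 0.960, 0.897 and 0.833 FPKM in D1, D2 and D3, against 0.446, 0.0824 and 0.0940 FPKM in L1, L2 and L3. All 3 libraries of 071113 were above each Zhuansihao library, an order that 7.45% of all 18875 gene rows had.

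FAH12, the oleate hydroxylase that makes ricinoleate in castor seed, had 0.916, 0.0518 and 0.746 FPKM in D1, D2 and D3 and was listed at 0 in L1, L2 and L3. Its levels in D1 and D3 were thus under 1 FPKM and in D2 close to 0. No fold or test is given against values of 0. ABI3, a seed regulator, was listed at 0 in every library except D1, where it had 0.244 FPKM.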

How the data were processed

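Poly(A) RNA of 6 internode libraries had been sequenced on an Illumina platform. From quality-filtered reads the authors made a table of FPKM for each gene in each library, and these deposited FPKM values, not pooled, were used as given. Which aligner, counter, annotation and build made them is not given in the sources used here. DESeq2, which the authors ran, needs read counts, and FPKM holds none.

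Here log2(FPKM + 1) was tested with limma 3.58.1 (R 4.3.3, mean-variance trend, Benjamini-Hochberg adjustment) for genes with at least 1 FPKM in at least 2 of the libraries compared. Tables were computed in Python 3.11.15 (numpy 2.4.6, pandas 2.3.3, scipy 1.17.1) and drawn with matplotlib 3.10.9. The test was also run on simulated data with known changes. These had independent noise in each library and changes larger than those of the 7 genes. The run therefore says nothing of how reliable the calls of the 7 genes are. The table has 18781 distinct names in 18875 rows, and 18431 rows matched the castor RefSeq table of assembly ASM1957865v1. That table gives LOC numbers as symbols, so other names were taken from its synonyms, which 71 genes have. None of the 7 genes overlaps another gene model in it.

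The 7 genes and the lists were chosen with earlier results of these data known. By rule the text names the 7 genes, up to 10 other pathway genes of highest mean level or called, and the 2 named genes most like each of the 7. SAD3, LPAAT5, WRI1, FAH12, ABI3, TAL3 and TAL5 stand outside the rule and were chosen after their values were seen. ACS4 was left out of the pathway list because the RefSeq table used holds no gene descriptions that could call it an acyl-CoA synthetase. Alternatives were other pseudocounts (0.1 and 0.5), no filter, median-ratio scaling, limma without trend or with robust variances, a replicate block, each library left out and all 6 libraries. Planned searches of protein motifs, related proteins and promoters were not run, because no sequences were used here.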

Additional observations from a re-analysis of the deposited data

How the results depend on the processing

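The calls rested on few libraries. Of the 7 genes, 3 were lower in D1 and D3 than in Zhuansihao, against 0 with all 6 libraries, 0 with the replicate block and 0 to 2 when a library was left out: 0 without D1, D3 or L2, 1 without L3 (PLD1) and 2 without L1 (KASIII and PLD1). At an unadjusted p under 0.05 limma still had 3 lower with the replicate block, 3 without D1 or D3, 4 without L2 and 0 with all 6 libraries, where 16.3%, 9.25% and 10.7%, 18.0% and 4.17% of all tested genes were lower. KASIII had adjusted p = 0.192 without D1 and 0.202 without D3, PLD1 0.203 and 0.150, with the lone dwarf library assumed to vary like the Zhuansihao libraries. With the replicate block the adjusted p was 0.0805 for KASIII, 0.115 for SAD2 and 0.104 for PLD1. Deviations of libraries with the same replicate number correlated at 0.121 and 0.127 over 2 pairs, and at -0.474, -0.553 and 0.330 over 3. So few pairs, with D2 and L1 alike, cannot settle whether replicate numbers pair the libraries. With all 6 libraries the 0 of 7 called became 0 to 3 when a library was left out, 3 only without D2.

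Over all genes, 2090 were called, against 2 with all 6 libraries, 0 with the replicate block (2593 lower and 1991 higher at an unadjusted p under 0.05) and 0 to 1947 with a library left out (963 without L2, 1236 without L3), the 0 arising without D1 or D3 (1449 lower and 1261 higher, and 1676 lower and 1323 higher, at an unadjusted p under 0.05). The stricter call gave 403 genes, against 674 with a pseudocount of 0.1, 2 with all 6 libraries, 0 with the replicate block and 0 to 364 with a library left out. The 2 genes called with all 6 libraries became 0 with the replicate block (472 lower and 600 higher at an unadjusted p under 0.05) and 0 to 2090 with a library left out, 2090 without D2.

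Signs turned only in genes that were not called. For D1 and D3 against Zhuansihao, DGAT2 was at 0.0200 with median-ratio scaling, 0.0223 with the replicate block, 0.00252 with all 6 libraries and -0.0997 to 0.0223 with a library left out. ACS2 was at 0.0509 with the replicate block and -0.51 to 0.19 with a library left out, and LPAT4 at -0.0791 with all 6 libraries. With all 6 libraries, leaving a library out gave DGAT2 -0.0600 to 0.0620 and LPAT4 -0.31 to 0.29. SAD2 also had adjusted p = 0.0516 without the trend. Median-ratio scaling moved the median of all genes to -0.01. Median-ratio scaling left at 3 the count of genes in which D2 and L1 were the 2 highest or the 2 lowest. The cause of these changes was not tested.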

Other observations

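Genes listed under lipase names (lipases release fatty acids from acylglycerols) and ACS4 were not in the pathway list, and a few with a RefSeq synonym are given here. TAL4 (also listed as TGL3-3) had 0.507, 1.91 and 0.693 FPKM in D1, D2 and D3, against 3.22, 2.81 and 3.72 FPKM in L1, L2 and L3. All 3 libraries of 071113 were below each Zhuansihao library, an order found in 7.41% of tested genes. TAL4 passed the filter without D2 only through its Zhuansihao values, so no test of it is given. TAL3 had 3.25, 13.8 and 2.04 FPKM in D1, D2 and D3, against 5.29, 1.83 and 2.29 FPKM in L1, L2 and L3, with its highest values in D2 and L1 and no call (limma adjusted p = 0.862). TAL5 went the other way. It had 2.16, 1.31 and 6.19 FPKM in D1, D2 and D3, against 0.569, 1.37 and 5.77 FPKM in L1, L2 and L3. Its lowest values were in L1 and D2, and it was not called (limma adjusted p = 0.520). OBL2, listed as a lipase, spread widely within both varieties, with 3.17, 1.10 and 0.111 FPKM in D1, D2 and D3, against 6.37, 22.5 and 0.711 FPKM in L1, L2 and L3. ACS4 was lowest in D2 and overlapped between varieties, with 67.7, 51.9 and 71.0 FPKM in D1, D2 and D3, against 62.2, 75.9 and 68.5 FPKM in L1, L2 and L3 (log2 difference 0.01, SE 0.12, adjusted p = 0.942).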
